A study of Mus musculus with 25 samples.

Results

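The genes described here are 10 members of the Notch pathway, read out by RNA-seq in the pituitary and in pituitary tumors of sh*Rb* mice. They were chosen by name, as 4 receptors (*Notch1*, *Notch2*, *Notch3*, *Notch4*), 3 ligands (*Dll1*, *Dll4*, *Jag1*) and 3 transcriptional targets (*Hes1*, *Hey1*, *Heyl*). All 10 were listed among the 15315 genes of the long-term table and among the 14007 genes of the short-term table, and all 10 passed the filter on low values in both. sh*Rb* mice carry the M2-rtTA activator at *Rosa26*, a broadly active locus, and at *Col1a1* a doxycycline (dox)-inducible, GFP-linked shRNA against *Rb*. They descend from 1 embryonic stem cell clone, shRb5-4, and were treated as young adults. The long-term groups were 6w+dox (6 weeks of dox, 3 females), 12w+dox (12 weeks of dox, 2 females and 2 males) and 12w-res (6 weeks of dox followed by 6 weeks without it, 3 females and 2 males). The short-term groups were 16w +dox (16 weeks of dox, 3 males) and mice at 1 day (1d -dox, 4 females), 3 days (3d -dox, 3 males) or 5 days (5d -dox, 3 females) after dox was withdrawn. Every mouse had received dox, and no mouse without the shRNA or without dox was among the samples. Each sample is 1 pituitary sample, and the labels do not say more about how the replicates were obtained.

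Notch receptors are membrane proteins that are cut when a Delta-like or Jagged ligand on a neighbouring cell binds them. The freed intracellular part enters the nucleus, joins the DNA-binding protein RBPJ (CSL) and switches on genes such as *Hes1*, *Hey1* and *Heyl*, which encode transcriptional repressors. In blood vessels *Notch4* and *Dll4* are best known from endothelial cells and *Notch3* from pericytes and smooth muscle, while in the developing pituitary *Hes1* is known for keeping progenitor cells undifferentiated.

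The agent that all groups share is shRb5, whose target site is shown with the 7 bases that pair with the guide seed (guide bases 2 to 8) in capitals.
shRb5 target site: gaggagtttgattCCATTATa
The site lies in the coding part of exon 22 of *Rb1*, at bases 2399 to 2419 of the longest GENCODE vM21 transcript. It was found whole in 1 of 14144 genes, *Rb1* itself, and the seed match CCATTAT was in none of the longest transcripts of the 10 Notch genes, against 13.3% of all genes with a transcript.

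Promoters were in the RefSeq table of GRCm38.p6 (mm10) for 7 of the 10 genes. The 250 bases before the transcription start are shown for the 3 receptors and the ligand that were called higher together in 12w-res against 12w+dox, and for *Notch2*, which was not. Capitals mark matches, on either strand, to the RBPJ core TGGGAA, to the E2F sites TTTGGCGC, TTTCCCGC, TTTGCCGC and TTTCGCGC, to the E-box CACGTG or to the N-box CACNAG, the last of which is known as a Hes1 motif.
Notch1 chr2:26503823-26504072 (- strand): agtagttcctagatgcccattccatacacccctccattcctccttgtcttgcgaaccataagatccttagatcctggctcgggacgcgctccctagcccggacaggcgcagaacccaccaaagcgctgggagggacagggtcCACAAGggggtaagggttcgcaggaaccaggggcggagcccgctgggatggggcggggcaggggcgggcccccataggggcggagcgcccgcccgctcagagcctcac
Notch3 chr17:32166891-32167140 (- strand): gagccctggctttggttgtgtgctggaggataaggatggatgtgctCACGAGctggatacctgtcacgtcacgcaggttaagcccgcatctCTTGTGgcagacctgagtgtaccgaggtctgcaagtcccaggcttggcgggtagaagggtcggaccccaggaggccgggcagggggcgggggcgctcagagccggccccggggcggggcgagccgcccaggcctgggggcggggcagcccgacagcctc
Notch4 chr17:34564045-34564294 (+ strand): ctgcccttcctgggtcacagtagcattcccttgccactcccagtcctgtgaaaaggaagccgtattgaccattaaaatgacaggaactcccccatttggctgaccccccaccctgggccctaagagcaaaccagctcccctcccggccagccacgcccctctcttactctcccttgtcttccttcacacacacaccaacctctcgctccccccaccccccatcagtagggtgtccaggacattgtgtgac
Jag1 chr2:137116521-137116770 (- strand): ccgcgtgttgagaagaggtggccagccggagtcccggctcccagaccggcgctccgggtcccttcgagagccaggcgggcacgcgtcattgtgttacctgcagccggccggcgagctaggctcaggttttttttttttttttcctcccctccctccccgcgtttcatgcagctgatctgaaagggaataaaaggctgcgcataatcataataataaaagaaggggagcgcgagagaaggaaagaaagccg
Notch2 chr3:98013288-98013537 (+ strand): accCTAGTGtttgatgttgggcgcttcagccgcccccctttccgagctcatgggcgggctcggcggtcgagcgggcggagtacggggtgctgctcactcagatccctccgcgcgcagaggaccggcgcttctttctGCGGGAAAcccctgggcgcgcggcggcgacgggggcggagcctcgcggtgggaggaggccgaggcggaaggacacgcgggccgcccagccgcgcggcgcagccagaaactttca
TGGGAA was in none of the 7 promoters, while 21.6% of 32817 promoters of the same length held it. CACNAG was in 4 of the 7 (*Notch1*, *Notch2*, *Notch3* and *Dll4*) and in 36.7% of all promoters. An E2F site was in 1, that of *Notch2*, against 1.86% of all, and CACGTG was in none, against 6.02%. The promoter of *Notch3* held 2 N-boxes, and those of *Notch4* and *Jag1* held none of the motifs searched. These are matches of letters only.

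*Rb1*, the gene the shRNA targets, was 1.86, 2.54 and 5.09 FPM (fragments scaled to library depth by the authors' size factors) at 6w+dox, between 2.42 and 4.05 FPM at 12w+dox and between 16.1 and 20.3 FPM in 12w-res. In the short-term mice *Rb1* was between 3.47 and 4.89 FPM at 16w +dox and between 3.76 and 6.03 FPM after withdrawal, while GFP, linked to the shRNA, went from 1025 to 1360.4 FPM at 16w +dox to 9.34 to 15.2 FPM at 5d -dox. Reads on genes numbered 19066053 to 28968476 per long-term mouse and 9573101 to 13036900 per short-term mouse. *Pomc*, the hormone precursor of melanotrophs and corticotrophs, took 12.9% to 43.2% of the long-term and 4.96% to 17.9% of the short-term reads on genes. FPM of the 2 experiments are on different scales and are not compared. Each Notch gene had 35 to 832 reads per long-term mouse and 12 to 892 per short-term mouse.

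Per length (FPM per kilobase of the longest GENCODE transcript), *Hey1* stood highest in 12w-res at 8.88 ± 1.44 (SD, n = 5), ahead of *Hes1* (6.55 ± 1.27), *Notch4* (6.08 ± 1.05), *Heyl* (4.23 ± 0.59) and *Notch3* (3.84 ± 0.70). *Dll1* was lowest at 0.81 ± 0.16, and its 5 mice were apart from those of its neighbour *Notch2* (1.60 ± 0.29). All other neighbours in this order overlapped between mice. At 12w+dox *Hey1* was again highest (7.07 ± 1.19 FPM per kilobase, n = 4) and apart from the next gene, *Hes1* (2.73 ± 0.87), while at 6w+dox *Hes1* (7.82 ± 2.08, n = 3) and *Hey1* (6.56 ± 0.78) overlapped and were apart from the other 8 genes. In the short-term mice, by the same measure, *Hey1* was highest in 3 of 4 groups, and *Notch2* in the remaining group, 3d -dox (1.66 ± 0.19, n = 3), where it overlapped *Hey1* (1.42 ± 0.43). *Hes1* was only 8th of 10 at 16w +dox (0.46 ± 0.22 FPM per kilobase, n = 3). The libraries of the long-term mice were poly(A)-selected and those of the short-term mice rRNA-depleted, which cannot be told apart from the time on dox.

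The main question of the long-term design is what differs once dox is withdrawn and *Rb* returns. Between 12w-res and 12w+dox, mice of the same time since the start of dox, 6 of the 10 Notch genes were higher and 0 lower by limma, where a call required an absolute log2 fold change over 1 together with an adjusted p (Benjamini-Hochberg) below 0.05. Of all 15315 genes, 6.24% were called higher and 11.3% in either direction. The 6 were 3 receptors, 1 ligand and 2 targets, and each was higher in all 5 rescued mice than in all 4 dox-treated mice, as were 17.1% of all genes. The median log2 fold change of the 10 genes was 1.21, against -0.004 over all genes tested. A higher share of the cells that express a gene and more RNA per cell cannot be told apart in such bulk samples.

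**Figure D1:**
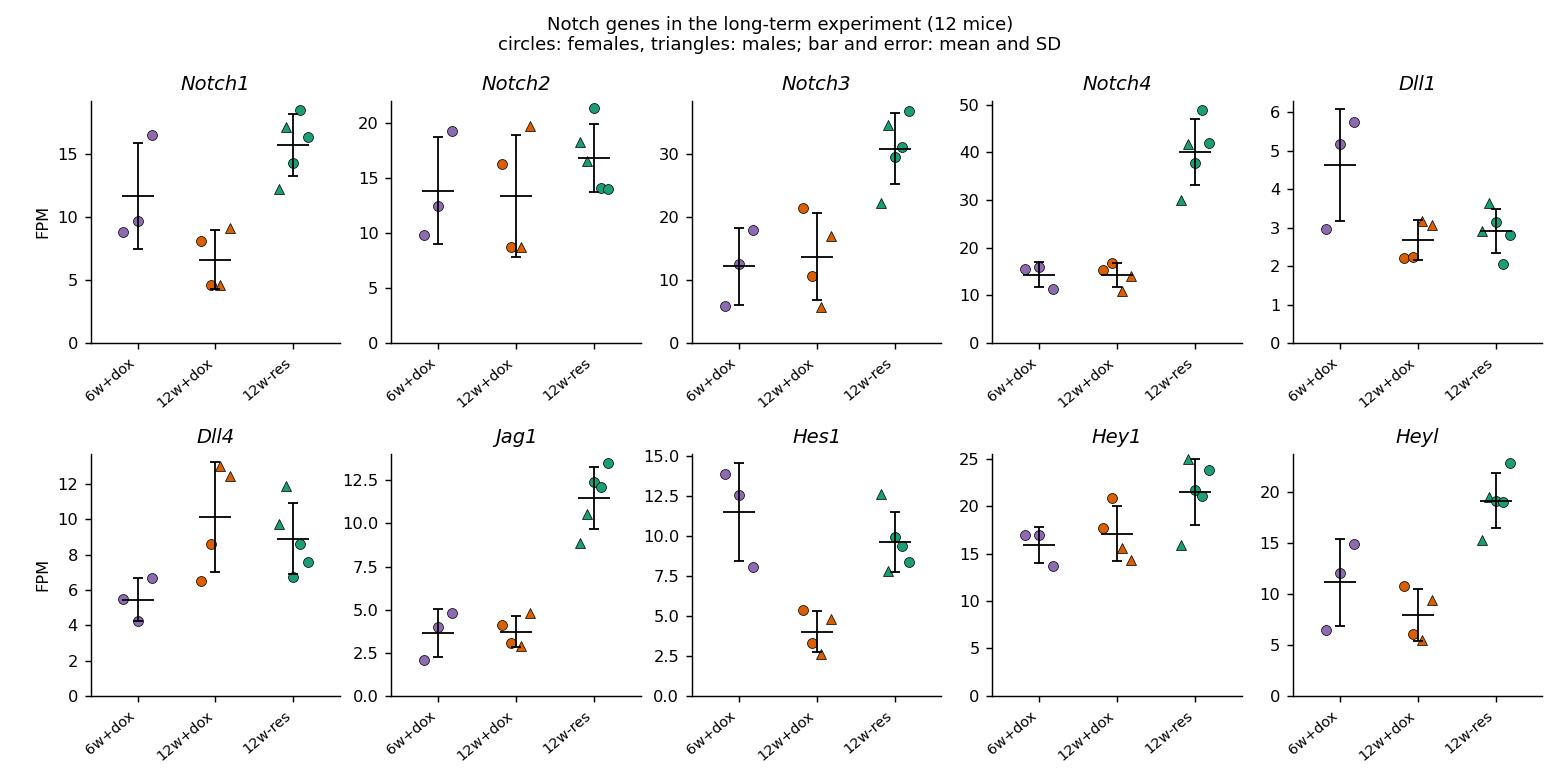
FPM of the 10 Notch genes in each long-term mouse (y axis, from 0) by group (x axis), with circles for females, triangles for males and black bars for mean and SD (n = 3, 4 and 5). *Notch1*, *Notch3*, *Notch4*, *Jag1*, *Hes1* and *Heyl* lie higher in every 12w-res mouse than in any 12w+dox mouse, and *Hes1* lies lower in every 12w+dox mouse than in any 6w+dox mouse.

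*Notch4*, a receptor of endothelial cells, was 15.4, 16.9, 10.97 and 14.1 FPM at 12w+dox and 29.9, 41.8, 37.9, 48.9 and 41.9 FPM in 12w-res. No rescued mouse came near the dox-treated range, and the mean was 2.80 times higher (log2 fold change 1.45 ± 0.16 SE, adjusted p = 1.59e-05, limma). *Notch3*, the receptor of mural cells, was 21.4, 10.6, 5.67 and 16.95 FPM at 12w+dox and 22.2, 34.6, 29.4, 31.0 and 36.8 FPM in 12w-res. Here the lowest rescued mouse and the highest dox-treated mouse were close to each other, and the log2 fold change was 1.28 ± 0.35 SE (adjusted p = 0.0101, limma). Without replicate 3 of 12w+dox, its lowest mouse, it fell short of the call at 0.93. *Notch1*, the most widely expressed receptor, was 8.06, 4.61, 4.62 and 9.13 FPM at 12w+dox and 12.2, 17.1, 14.2, 18.5 and 16.3 FPM in 12w-res. The rescued mice were all higher, by 2.37 times in the mean (log2 fold change 1.23 ± 0.23 SE, adjusted p = 0.00106, limma). *Notch2* differed from the other receptors in that its groups overlapped, with 16.3, 8.74, 8.72 and 19.7 FPM at 12w+dox against 18.2, 16.5, 21.3, 14.1 and 13.9 FPM in 12w-res (log2 fold change 0.39 ± 0.26 SE, adjusted p = 0.245, limma).

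Among the ligands, *Jag1*, a Jagged ligand, had the largest fold change of the 10 genes. It was 4.12, 3.09, 2.90 and 4.78 FPM at 12w+dox and 8.84, 10.6, 12.4, 12.1 and 13.5 FPM in 12w-res. The means differed by 3.09 times, with no overlap (log2 fold change 1.52 ± 0.22 SE, adjusted p = 0.000148, limma). The Delta-like ligands stood apart from *Jag1*, as both overlapped between the groups. *Dll4*, the Delta-like ligand of endothelial tip cells, was 6.53, 8.60, 13.03 and 12.5 FPM at 12w+dox and 9.72, 11.9, 6.74, 8.62 and 7.57 FPM in 12w-res (log2 fold change -0.16 ± 0.22 SE, adjusted p = 0.613, limma). *Dll1* was low throughout, between 2.20 and 3.17 FPM at 12w+dox and between 2.07 and 3.65 FPM in 12w-res (log2 fold change 0.10 ± 0.22 SE, adjusted p = 0.73, limma). In RefSeq, *Dll4* overlaps the long noncoding RNA *Gm14207*, which is listed in the long-term table as a gene of its own, and whether reads were counted by strand is not given in the sources used here.

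Of the targets, *Hes1* was 5.34, 3.29, 2.59 and 4.80 FPM at 12w+dox and 12.6, 7.82, 9.92, 9.39 and 8.34 FPM in 12w-res. All rescued mice were higher, by 2.40 times in the mean (log2 fold change 1.19 ± 0.22 SE, adjusted p = 0.000968, limma). *Heyl*, a target known from mural cells, was 10.8, 6.09, 5.51 and 9.41 FPM at 12w+dox and 15.3, 19.5, 19.1, 19.0 and 22.9 FPM in 12w-res. It was thus also higher in each rescued mouse, by 2.41 times in the mean (log2 fold change 1.26 ± 0.24 SE, adjusted p = 0.00108, limma). *Hey1*, the most abundant of the 10 per length in these groups, was 17.7, 20.9, 15.6 and 14.3 FPM at 12w+dox and 15.9, 25.0, 21.8, 21.1 and 23.8 FPM in 12w-res. Its groups overlapped (log2 fold change 0.32 ± 0.15 SE, adjusted p = 0.116, limma).

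**Figure D2:**
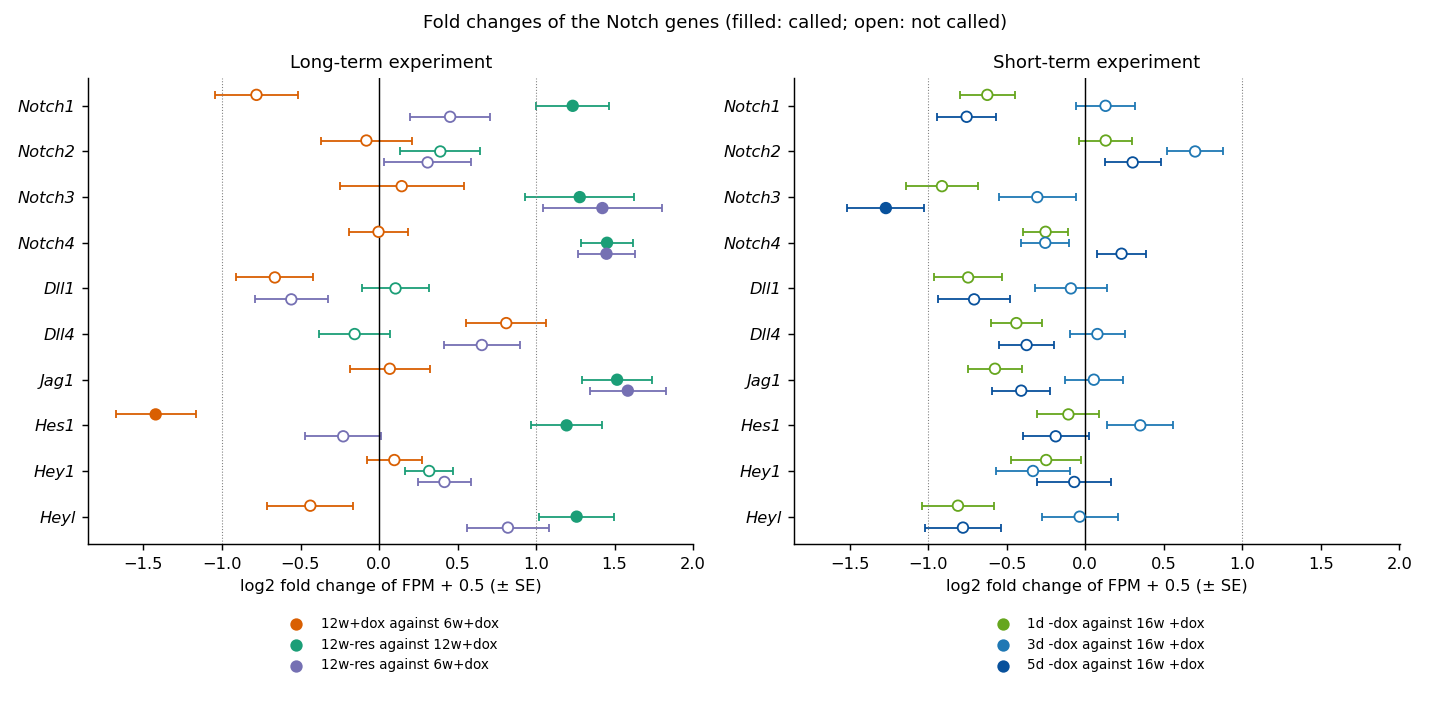
log2 fold change of FPM + 0.5 with its SE (x axis) for the 10 Notch genes (y axis) in 3 long-term (left) and 3 short-term comparisons (right), filled where called at an adjusted p under 0.05 beyond the dotted lines at 1 and -1. Between 12w-res and 12w+dox 6 genes are filled, all to the right, while in the short-term mice only *Notch3* at 5d -dox is filled, at -1.27.

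The called genes were higher together with markers of blood vessels and connective tissue, while smaller parts of the lists for other cell types were called. The summed markers of every cell type list were nevertheless higher in 12w-res than at 12w+dox, without overlap. Of 12 endothelial markers, 10 were called higher in 12w-res than in 12w+dox and 0 lower, with a median log2 fold change of 1.23. For markers of pericytes and smooth muscle this was 10 of 10 (median 1.52), and for fibroblast markers 6 of 6 (median 1.76). Summed endothelial markers were 91.1 to 182 FPM per mouse at 12w+dox and 289 to 379 FPM in 12w-res, and summed pericyte and smooth muscle markers 146 to 334 and 588 to 698 FPM. *Pecam1* and *Cdh5*, which define endothelial cells, rose by 1.42 and 1.56 on the log2 scale, *Pdgfrb* and *Rgs5*, which mark pericytes, by 1.62 and 1.52, and no listed marker was at 0 in all mice. Of 7 macrophage and leukocyte markers tested, 0 were called, 5 passed the adjusted p alone and all 7 lay above 0. Their sums were 52.1 to 81.1 FPM at 12w+dox and 92.2 to 127 FPM in 12w-res. Of 9 markers of pituitary stem and folliculostellate cells 3 were called higher, 6 passed the adjusted p as higher and 8 lay above 0 (median 0.88). Here the sums were 381 to 525.8 FPM at 12w+dox and 664 to 783 FPM in 12w-res. Of 8 melanotroph and corticotroph markers 2 were called higher, 2 passed the adjusted p as lower and only 3 lay above 0 (median log2 fold change -0.073). Their summed levels were 99256 to 202312 FPM at 12w+dox and 462951 to 584316 FPM in 12w-res. *Pomc* itself, which is in this list, was not called (1.86 ± 3.08 SE, adjusted p = 0.663, limma). Its share of the reads on genes still differed without overlap, at 12.9% to 23.0% at 12w+dox and 39.1% to 43.2% in 12w-res. The SE draws on a variance trend over all genes and not on the spread between these mice alone, so the missing call does not show equal levels. Of 7 markers of other pituitary hormone cells, such as the growth hormone and prolactin genes *Gh* and *Prl*, 2 were also called higher (median log2 fold change 1.10), with sums of 1215 to 13031 and 17309 to 34952 FPM. The part of these cells in the differences of the Notch genes was not tested.

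**Figure D3:**
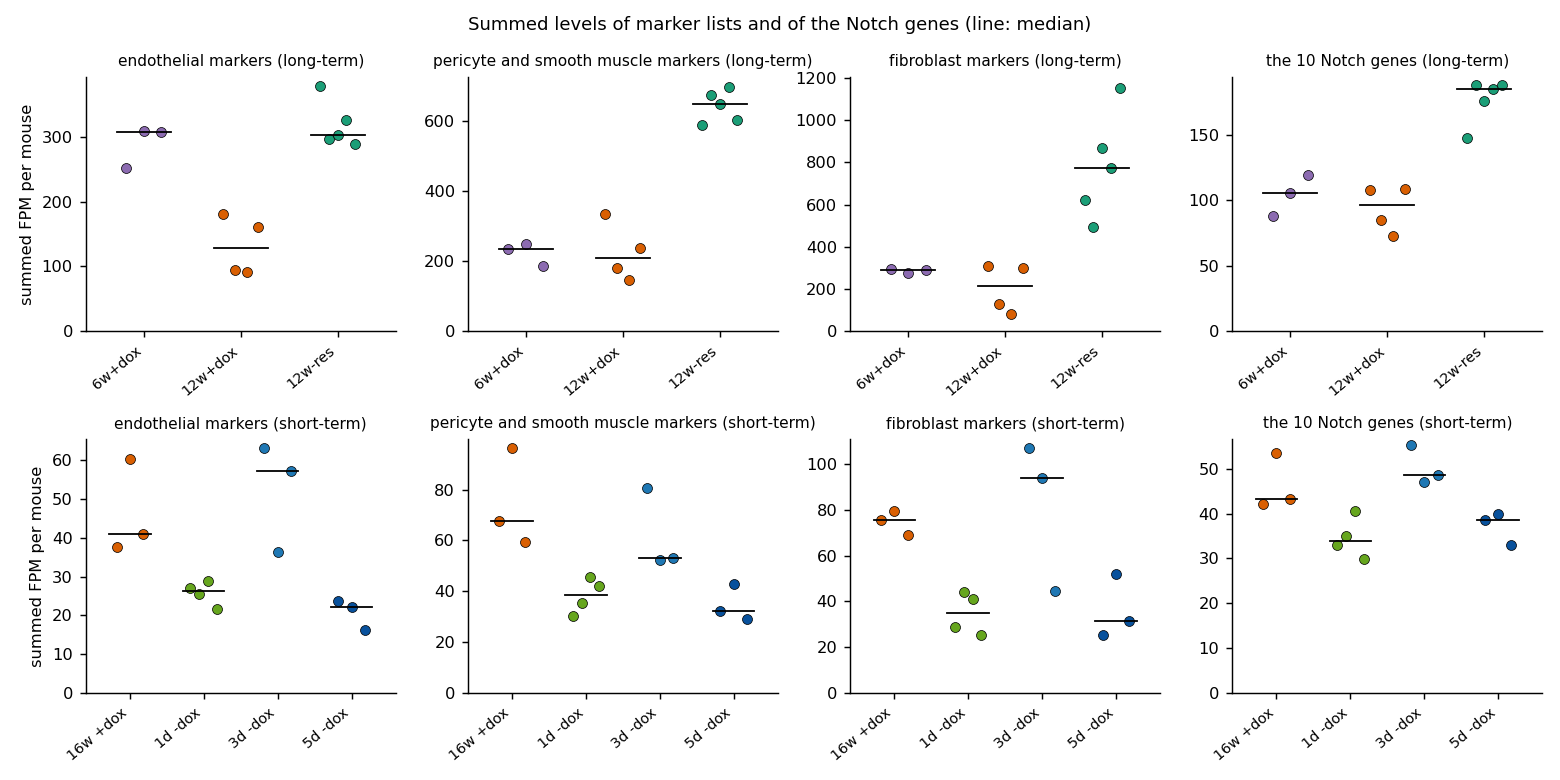
Summed FPM per mouse (y axis, from 0) of 12 endothelial, 10 pericyte and smooth muscle and 6 fibroblast markers and of the 10 Notch genes, by group (x axis) in the long-term (top) and short-term mice (bottom), with a line at the median. In 12w-res all 4 sums lie higher than at 12w+dox, whereas endothelial sums of 12w-res (289 to 379 FPM) and 6w+dox (253 to 309.6 FPM) overlap.

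The size of these differences depends on how the libraries are scaled, since *Pomc* took 39.1% to 43.2% of the reads on genes in 12w-res and 12.9% to 23.0% at 12w+dox. Scaled to the totals of reads on genes, the median of all genes moved to -0.61, and 0 of the 10 Notch genes were called by limma, against 23.6% of all genes. The 6 genes were still higher, with log2 fold changes from 0.59 (*Hes1*) to 0.91 (*Jag1*). By this scaling *Notch4*, *Jag1* and *Hes1* kept an adjusted p under 0.05 (0.000449, 0.0105 and 0.0274, limma), and *Notch1*, *Notch3* and *Heyl* did not (0.0797, 0.17 and 0.0783). Scaled to reads on genes other than *Pomc*, a choice made after seeing the data, the median of all genes was -0.18 and all 6 were called (11.7% of all genes), as under TMM scaling (11.3%). *Notch2*, *Hey1* and *Dll1*, which were not called, turned from positive to negative under the totals, and *Dll4* passed the adjusted p as lower (-0.78, adjusted p = 0.0205, limma).

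**Figure D4:**
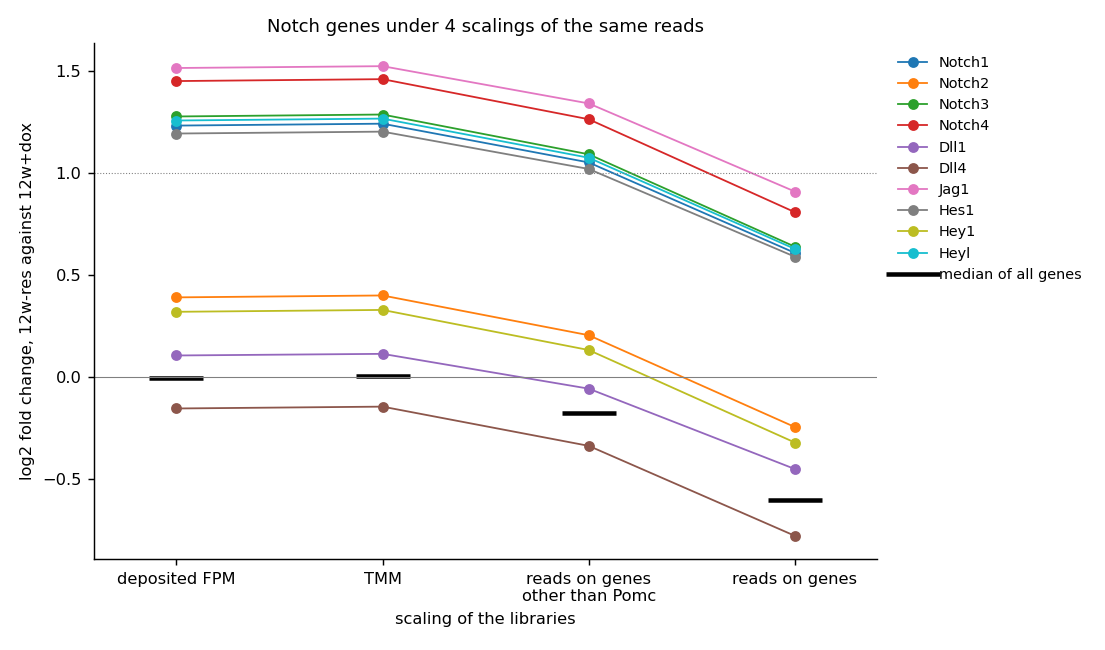
log2 fold change between 12w-res and 12w+dox (y axis) of the 10 Notch genes (coloured lines) under 4 scalings of the same reads (x axis), with the median of all genes as black bars and a dotted line at 1. The 6 called genes stay between 0.59 and 0.91 and keep above the others when libraries are scaled to reads on genes, where the median of all genes is -0.61.

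The 6 genes were also higher within each sex. In females the 12w-res mice were higher than the 12w+dox mice by 1.38 (*Notch4*), 1.69 (*Jag1*), 1.34 (*Notch1*), 1.27 (*Heyl*), 1.07 (*Notch3*) and 1.04 (*Hes1*) on the log2 scale, and in males by 1.47, 1.26, 1.09, 1.20, 1.44 and 1.37. Tested within each sex, *Notch3* passed an adjusted p of 0.05 in neither (0.151 in females and 0.0792 in males, limma), and *Notch1* did not pass in males (0.0632). The test of the difference between the sexes called 0 of the 10 genes, with an adjusted p of 0.9997 for each, and 5 of 15315 genes in all. With 2 or 3 mice per sex and group, the SE of this difference ran from 0.30 (*Hey1*) to 0.71 (*Notch3*). The test could therefore miss sizeable differences and does not show that the sexes agree. In a fit on females alone *Notch3* lost its call (1.07, adjusted p = 0.112, limma).

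Tumor progression on dox was examined by comparing 12w+dox with 6w+dox, where 1 of the 10 genes was called, *Hes1*, while 7.2% of all genes were called. *Hes1* was 13.9, 12.6 and 8.03 FPM at 6w+dox and 5.34, 3.29, 2.59 and 4.80 FPM at 12w+dox. It was lower in every mouse at 12 weeks, in groups without overlap as for 25.2% of all genes, by 2.87 times in the mean (log2 fold change -1.42 ± 0.25 SE, adjusted p = 0.0022, limma), and its call was kept under all 20 alternatives tried. With the rescue values above, *Hes1* thus lay low at 12w+dox and overlapped between 6w+dox and 12w-res. *Notch1* was 8.79, 9.66 and 16.5 FPM at 6w+dox, and *Dll4* 5.47, 4.23 and 6.66 FPM. Both passed an adjusted p of 0.05 without reaching a log2 fold change of 1, as did 22.4% of all genes. *Notch1* was lower at 12w+dox (-0.78 ± 0.27 SE, adjusted p = 0.0489, limma) and *Dll4* higher (0.81 ± 0.25 SE, adjusted p = 0.0353, limma), each with overlapping groups. All 6w+dox mice were female, and among the 12w+dox mice *Dll4* was 6.53 and 8.60 FPM in the 2 females and 13.03 and 12.5 FPM in the 2 males. With sex as a covariate neither gene passed (adjusted p = 0.101 for *Notch1* and 0.105 for *Dll4*, limma), and without any 1 of 5 of the 7 mice *Dll4* also missed the threshold, with log2 fold changes from 0.65 to 0.87.

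The other 7 genes were not called between 6w+dox and 12w+dox, and their log2 fold changes ran from -0.66 (*Dll1*, adjusted p = 0.0653) to 0.14 (*Notch3*, adjusted p = 0.824, limma). *Notch4* was 15.6, 16.0 and 11.4 FPM at 6w+dox, and *Jag1* 2.10, 4.01 and 4.80 FPM, both within or around their 12w+dox ranges. Of the endothelial markers 5 were called lower and 0 higher at 12w+dox, and of the pericyte and smooth muscle markers 2 were called lower. Summed endothelial markers were 253 to 309.6 FPM per mouse at 6w+dox, all above those of 12w+dox. Summed markers of pituitary stem and folliculostellate cells were 377 to 658 FPM at 6w+dox and 381 to 525.8 FPM at 12w+dox. Of these 9 markers 3 were called lower, as were 3 of 6 fibroblast markers. Of 7 markers of other pituitary hormone cells 5 were called lower (median log2 fold change -2.87), with summed levels of 58648 to 94098 FPM at 6w+dox and 1215 to 13031 FPM at 12w+dox. The part of these cells in the lower *Hes1* was not tested.

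Between 12w-res and 6w+dox, where the rescued mice are compared with mice at the time dox was withdrawn, 3 of the 10 genes were called, all higher, while 5.81% of all genes were called higher and 11.6% in either direction. The comparison shares its mice with both comparisons above. Of the 10, 5 were higher without overlap, as were 16.9% of all genes. *Notch4* was higher in all 5 rescued mice (1.45 ± 0.18 SE, adjusted p = 3.92e-05, limma), as was *Jag1* (1.58 ± 0.24 SE, adjusted p = 0.000235, limma). *Notch3* was 5.82, 12.6 and 17.97 FPM at 6w+dox and also lay below all rescued mice (1.42 ± 0.38 SE, adjusted p = 0.0102, limma). Without replicate 1 of 6w+dox, its lowest mouse, *Notch3* was no longer called (0.99, adjusted p = 0.0614, limma), and neither was it under totals of reads on genes (1.09, adjusted p = 0.0578, limma). *Heyl* was 6.46, 12.1 and 14.9 FPM at 6w+dox and passed the adjusted p alone (0.82 ± 0.26 SE, adjusted p = 0.026, limma). It was 1 of 4 higher genes among the 10 that passed an adjusted p under 0.05, where 17% of all genes did so. *Dll4* was higher in all rescued mice without passing (0.65 ± 0.24 SE, adjusted p = 0.0515, limma), and *Hes1* overlapped (-0.23 ± 0.24 SE, adjusted p = 0.498, limma). All 6w+dox mice were female, with *Dll4* at up to 6.66 FPM. In 12w-res *Dll4* was 6.74, 8.62 and 7.57 FPM in the females and 9.72 and 11.9 FPM in the males. Its log2 fold change ran from 0.34 to 0.80 under the alternatives. Summed endothelial markers overlapped between these groups, with 2 of 12 called higher, while summed pericyte and smooth muscle markers were 187 to 248 FPM at 6w+dox and 588 to 698 FPM in 12w-res, with 5 of 10 called higher.

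The short-term mice ask how soon expression responds to dox withdrawal, at times when *Rb1* itself had not passed the test. At 1d -dox 0 of the 10 genes were called by limma, while 0.043% of all genes were. At an unadjusted p under 0.05 there were 6 genes (13.1% of all), and DESeq2 on the recovered reads called 1, *Heyl* (-1.05). The same 6 (*Notch1*, *Notch3*, *Dll1*, *Dll4*, *Jag1* and *Heyl*) were lower in every 1d -dox mouse than in any 16w +dox mouse, where 11.2% of all genes had groups that did not overlap. Their log2 fold changes ran from -0.44 (*Dll4*) to -0.91 (*Notch3*). The 1d -dox mice are female and the 16w +dox mice male, so sex and dox withdrawal cannot be told apart here. At 3d -dox 0 of the 10 were called by limma, edgeR or DESeq2 (0.129% of all genes by limma), and 1 passed an unadjusted p under 0.05 (16.6% of all). This was *Notch2*, at 10.96, 10.1 and 10.4 FPM at 16w +dox and 19.4, 15.4 and 17.4 FPM at 3d -dox. It was higher in all 3 mice, without overlap as for 21.6% of all genes (0.70 ± 0.18 SE, adjusted p = 0.0983, limma). Its groups are both male, and the other 9 genes overlapped between them.

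**Figure D5:**
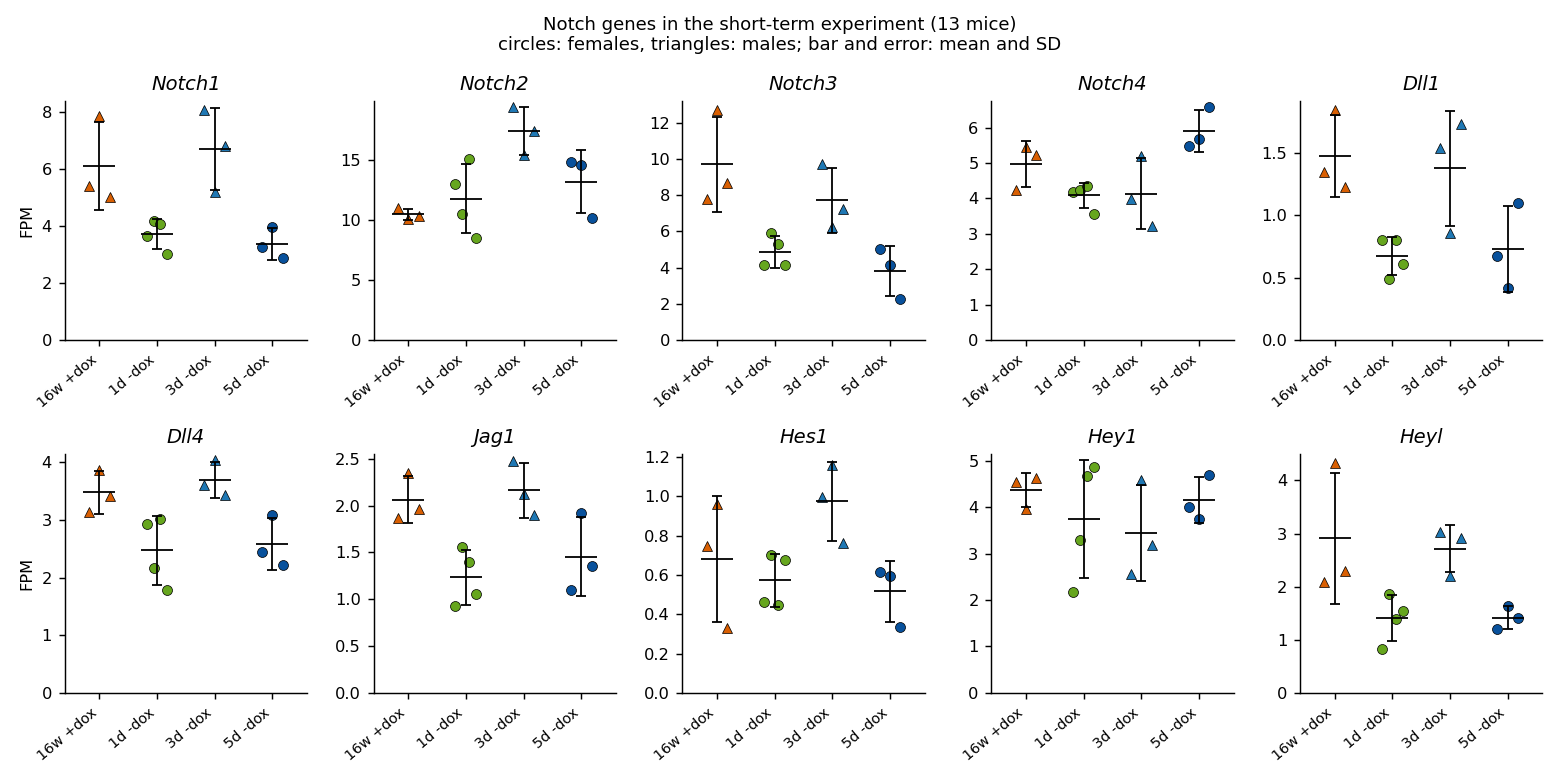
FPM of the 10 Notch genes in each short-term mouse (y axis, from 0) by group (x axis), with circles for females, triangles for males and black bars for mean and SD (n = 3, 4, 3 and 3). *Notch1*, *Notch3*, *Dll4* and *Heyl* lie lower in all 1d -dox and 5d -dox mice, which are female, than in all 16w +dox and 3d -dox mice, which are male, and 1.9% of all genes do not overlap between them.

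At 5d -dox 1 of the 10 genes was called, *Notch3*, while 0.193% of all genes were. *Notch3* was 7.79, 12.7 and 8.65 FPM at 16w +dox, 4.12, 5.89, 5.28 and 4.16 FPM at 1d -dox, 9.71, 6.22 and 7.23 FPM at 3d -dox and 5.02, 4.16 and 2.28 FPM at 5d -dox. It was lower in all 3 mice at 5d -dox than at 16w +dox (log2 fold change -1.27 ± 0.24 SE, adjusted p = 0.0376, limma). The call was lost without any 1 of the 3 mice at 16w +dox or without replicates 2 or 3 of 5d -dox, with log2 fold changes from -0.98 to -1.41 and adjusted p from 0.0689 to 0.12. These groups differ in sex as well as in dox, and the 2 cannot be told apart. Between 5d -dox and 1d -dox, both female, *Notch3* had a log2 fold change of -0.36 ± 0.23 SE (adjusted p = 0.811, limma), and 0 of the 10 genes were called by limma, edgeR or DESeq2 (0.0143% of all genes by limma). There *Notch4* was higher in all 5d -dox mice, at 5.47, 5.69 and 6.58 FPM, than at 1d -dox, at 4.18, 4.25, 4.36 and 3.55 FPM, without overlap as for 7.8% of all genes, and passed only the unadjusted p, as did 6.33% (0.48 ± 0.14 SE, adjusted p = 0.609, limma). *Notch1*, *Dll1*, *Dll4* and *Heyl* were also lower in each 5d -dox mouse than at 16w +dox, where 19.3% of all genes did not overlap, with adjusted p from 0.0922 to 0.365 (limma), and *Notch4* was higher in each (adjusted p = 0.541, limma). Between the female groups and the male groups, a comparison chosen after the values were seen, 6 of the 10 genes had an adjusted p under 0.05, as did 6.61% of all genes (limma). *Hes1* had the fewest reads, 12 to 57 per short-term mouse, and its level there has the largest counting error of the 10.

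Markers of vessels, fibroblasts and other pituitary hormone cells moved with these values too. Summed endothelial markers were 37.7 to 60.4 FPM per mouse at 16w +dox and 36.3 to 63.1 FPM at 3d -dox, but 21.5 to 28.9 FPM at 1d -dox and 16.1 to 23.6 FPM at 5d -dox. Summed pericyte and smooth muscle markers were 59.5 to 96.5 and 52.3 to 80.8 FPM in the male groups, and 30.2 to 45.5 and 28.9 to 43.0 FPM in the female ones. At 5d -dox 3 of 12 endothelial and 2 of 10 pericyte and smooth muscle markers were called lower than at 16w +dox. Summed fibroblast markers were 69.0 to 79.8 FPM at 16w +dox, 25.5 to 44.1 FPM at 1d -dox, 44.8 to 107 FPM at 3d -dox and 25.3 to 51.9 FPM at 5d -dox. Summed markers of other pituitary hormone cells were 198 to 238 FPM at 16w +dox, 23.0 to 106 FPM at 1d -dox, 167 to 882 FPM at 3d -dox and 25.6 to 102 FPM at 5d -dox. Of these 7 markers, 1 was called lower at 1d -dox, 1 higher at 3d -dox and 1 lower at 5d -dox, with median log2 fold changes of -1.64, 1.26 and -1.96. Stem and folliculostellate sums lay the other way with overlap, at 148 to 182 and 130 to 156 FPM in the male groups. In the female groups they were 165 to 206 and 177 to 234 FPM. Melanotroph and corticotroph sums were 35693 to 38862 and 13042 to 29667 FPM in males, and 25965 to 46435 and 41049 to 58565 FPM in females. For macrophages and leukocytes they were 10.6 to 13.5 and 11.2 to 19.9, and 6.69 to 15.8 and 7.40 to 10.2 FPM. The part of any of these cells in the lower *Notch3* was not tested.

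The wider pathway was followed in 66 further genes, of which 62 were tested in the long-term and 61 in the short-term mice. Between 12w-res and 12w+dox 0 were called higher and 3 lower by limma, where 6.24% of all genes were called higher and 5.04% lower. Before adjustment, 11 higher and 16 lower genes had a p under 0.05, where 47.3% of all genes passed in either direction, and the median log2 fold change was -0.12. The lower ones were *Neurl1b*, a ubiquitin ligase for Notch ligands (-2.20 ± 0.18 SE), *Dlk2*, a noncanonical ligand (-1.44 ± 0.27 SE), and *Bhlhe41*, a repressor related to the Hes proteins (-1.09 ± 0.15 SE). *Neurl1b* was 28.04 ± 4.77 FPM (SD, n = 4) at 12w+dox and 5.80 ± 1.64 FPM (n = 5) in 12w-res, without overlap. Scaled to the totals of reads on genes, 18 were called in place of 3, and 23.6% of all genes. In the nuclear complex, which holds *Rbpj*, the Mastermind genes and the corepressors, 0 of 22 were called by limma, with 1 higher and 6 lower at an unadjusted p under 0.05.

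Between 12w-res and 6w+dox 3 of the 62 were called higher and 3 lower, where 5.81% of all genes were called higher and 5.82% lower. The higher ones were *Maml3*, a Mastermind coactivator (1.36 ± 0.26 SE), *Aph1b*, a subunit of the gamma-secretase that frees the intracellular part of Notch (1.34 ± 0.15 SE), and *Mib1*, a ubiquitin ligase that acts on ligands (1.06 ± 0.24 SE). The lower ones were *Neurl1b* (-1.999 ± 0.20 SE), *Dlk2* (-1.65 ± 0.29 SE) and *Cntn1*, a contactin that can bind Notch (-1.15 ± 0.28 SE). Between 12w+dox and 6w+dox *Dlk1*, a noncanonical ligand, was called lower (-3.09 ± 0.75 SE, with overlap) and *Mib1* higher (1.47 ± 0.25 SE), 2 of the 62 where 7.2% of all genes were called. Without replicate 2 of 6w+dox 1 gene was called, and without replicate 3 of 6w+dox 5 were. *Dlk1* was 386 to 838 FPM at 6w+dox and 23.0 to 485 FPM at 12w+dox. In each short-term comparison 0 of 61 were called by limma, and DESeq2 called 1 at 1d -dox. Without adjustment, 2 higher and 10 lower genes of the 61 passed a p of 0.05 at 1d -dox, where 13.1% of all genes passed (limma). For 3d -dox it was 3 and 7 genes, against 16.6% of all genes. From 1d -dox to 5d -dox it was 7 and 0 genes, against 6.33% of all genes. Between 5d -dox and 16w +dox 7 higher and 7 lower genes passed, a count for which the share of all genes is not given here. There 6 higher and 12 lower genes of the 61 did not overlap between the groups, nor did 19.3% of all genes.

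Over the 12 long-term mice, the genes whose log2 levels followed each called Notch gene most closely differed between them. *Jag1* was followed by *Col5a3*, *Rb1* and *Xdh* (Pearson r 0.98, 0.98 and 0.97), *Notch4* by *Sept9*, *Clptm1l* and *Ganab* (0.99 each) and *Notch3* by *Svil*, *Iqsec1* and *Sec16a* (0.97, 0.97 and 0.96). For *Notch1* these were *Rhbdf1*, *Stau1* and *Rgs9* (0.97, 0.97 and 0.96), for *Heyl* they included *Daam2* and *Spns2* (0.97 each), and for *Hes1* they were *Ramp2*, *Suclg2* and *Hexim1* (0.98, 0.97 and 0.96). Among the 10 genes, *Heyl* and *Notch3* were closest (0.93), and *Hes1* and *Dll4* had the most negative coefficient (-0.59). These are descriptions over mice of 3 groups that differ in level and share their scaling.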

How the data were processed

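RNA-seq tables of 25 mice were used, 12 of the long-term experiment (poly(A)-selected libraries) and 13 of the short-term experiment (rRNA-depleted libraries). The authors mapped reads to mm10 with STAR, used RefSeq genes and deposited, per gene and mouse, a signal in FPM scaled by DESeq2 size factors. These deposited values are not raw counts. The counting tool and the use of strand are not given in the sources used here. In each library every value was a whole number of steps of 1 size (tolerance 0.1 step), and these steps, taken as reads, gave the depths and the input of the count tests. Left out were 2 lines without a name in the long-term table and 4 lines naming no gene in the short-term table (unmapped, multimapping, without a feature or ambiguous), which held 68.8% to 75.0% of a library. 0 per-sample columns were left unused.

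Genes were compared with limma 3.58.1 in R 4.3.3, on log2(FPM + 0.5) and with a variance trend, fitting all groups of an experiment together, and p-values were adjusted by Benjamini-Hochberg over all genes that had 10 or more reads in over 50% of the mice of a group. This kept all 15315 long-term and 13958 of 14007 short-term genes. Adding 0.5 understates fold changes of low genes. There were 7 comparisons. In reads simulated for 12w+dox against 6w+dox (15046 genes) and for 1d -dox against 16w +dox (13677 genes), limma recovered 187 and 192 of 200 changed genes. Of the other genes it called 4 and 0. This recovery holds for the simulated reads and does not measure the power of the tests in the mice. The p-values measure only the spread between these samples. All replicate pairs differed by more than counting error.

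Named were the 10 genes, *Rb1*, GFP and *Pomc*, up to 4 called genes of largest change per wider list and comparison, the 3 genes closest to each called gene, and defining markers of lists whose sums are given. 1 gene that this rule names is not reported here. The genes, the lists and these rules were chosen with earlier results of these data known. All 10 genes had a RefSeq position and 7 a promoter (GRCm38.p6), and lengths came from GENCODE vM21. Alternatives were other scalings, pseudocounts of 0.1 and 1, other filters, edgeR 4.0.16 and DESeq2 1.42.0 on recovered reads, only the groups compared, a block for the replicate number, a covariate for sex, females only, and each mouse left out in turn.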

Additional observations from a re-analysis of the deposited data

How the results depend on the processing

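Of 1330 fold changes of the 10 genes under the alternatives, 1217 kept their direction and their side of an adjusted p of 0.05, 39 lost it, 26 gained it and 48 changed direction. None of the 48 belonged to a gene called in that comparison. Between 12w-res and 12w+dox the number of genes called was 0 in place of 6 under totals of reads on genes, and 5 to 6 when 1 mouse was left out. Between 12w-res and 6w+dox, where 3 were called, leaving out 1 mouse gave 2 (without replicate 1 of 6w+dox) to 4. Between 12w+dox and 6w+dox the count was 3 in place of 1 without a minimum fold change, and 2 under totals of reads on genes, with or without *Pomc*. DESeq2 called 1 gene at 1d -dox in place of 0. The 1 gene called at 5d -dox became 0 when only the 2 groups were fitted, and 0 to 1 when 1 mouse was left out. Over all genes, totals of reads called 3608 in place of 1727 between 12w-res and 12w+dox and 2 in place of 6 at 1d -dox. DESeq2 called 113 at 1d -dox, 104 in place of 18 at 3d -dox, 139 in place of 27 at 5d -dox and 7 in place of 2 between 5d -dox and 1d -dox. At 1d -dox totals without *Pomc* called 10.

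Whether equal replicate numbers mark paired mice is not given by the labels, and the correlations that follow cannot settle it. Deviations of same-numbered mice correlated at -0.17 to 0.24 over 10 long-term pairs and at -0.21 to 0.17 over 18 short-term pairs. With the replicate number as a block, 0 genes were called at 5d -dox (*Notch3* -1.27, adjusted p = 0.0735, limma), *Notch3* between 12w-res and 6w+dox had an adjusted p of 0.0745 (limma), and 1 in place of 18 of all genes was called at 3d -dox and 18 in place of 27 at 5d -dox. The block turned *Jag1* between 12w+dox and 6w+dox to -0.0137 and *Dll4* between 5d -dox and 1d -dox to -0.0558.

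Under totals of reads on genes, log2 fold changes turned to 0.23 (*Notch2*) and 0.31 (*Notch4*) for 12w+dox against 6w+dox, to -0.25 (*Notch2*), -0.45 (*Dll1*) and -0.32 (*Hey1*) for 12w-res against 12w+dox, to -0.0139 (*Notch2*) for 12w-res against 6w+dox, to 0.0231 (*Dll1*) and 0.0942 (*Heyl*) for 3d -dox against 16w +dox, and to -0.0136 (*Dll1*), -0.00185 (*Dll4*) and -0.0256 (*Heyl*) for 5d -dox against 1d -dox. Under totals without *Pomc* they turned to 0.16 (*Notch2*) and 0.24 (*Notch4*) for 12w+dox against 6w+dox, to -0.0581 (*Dll1*) for 12w-res against 12w+dox and to 0.0329 (*Heyl*) for 3d -dox. *Notch4* for 12w+dox against 6w+dox was 0.15 with sex as a covariate and 0.18 in females, and *Dll4* for 12w-res against 12w+dox was 0.0199 in females. Leaving out 1 mouse gave, for 12w+dox against 6w+dox, -0.29 to 0.49 (*Notch3*), -0.29 to 0.18 (*Notch2*), -0.00255 to 0.18 (*Hey1*), -0.15 to 0.11 (*Notch4*) and -0.24 to 0.28 (*Jag1*). For 1d -dox against 16w +dox it gave -0.34 to 0.0660 (*Hes1*), and for 3d -dox -0.23 to 0.13 (*Dll1*), -0.20 to 0.24 (*Heyl*), -0.00717 to 0.31 (*Notch1*) and -0.0284 to 0.13 (*Jag1*). For 5d -dox against 1d -dox it gave -0.0272 to 0.31 (*Hey1*), -0.13 to 0.15 (*Heyl*), -0.17 to 0.23 (*Dll1*), -0.0558 to 0.15 (*Dll4*) and -0.15 to 0.0532 (*Hes1*). The causes were not tested.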

Other observations

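In the short-term mice several Notch genes followed the split into female groups (1d -dox and 5d -dox) and male groups (16w +dox and 3d -dox). This comparison was chosen after the values were seen. Over the 7 female and 6 male mice, 4 of the 10 genes had no overlap, where 1.9% of all genes had none. *Notch1* was 2.87 to 4.18 FPM in females and 5.03 to 8.06 FPM in males, and *Notch3* 2.28 to 5.89 and 6.22 to 12.7 FPM. *Dll4* was 1.78 to 3.09 and 3.14 to 4.04 FPM, and *Heyl* 0.825 to 1.86 and 2.10 to 4.33 FPM. Of the 10 genes, 6 had an adjusted p under 0.05 for the female against the male groups (limma), as did 6.61% of all genes. These were *Notch1* (log2 difference -0.75 ± 0.13 SE), *Notch3* (-0.94 ± 0.17 SE), *Dll1* (-0.68 ± 0.16 SE), *Dll4* (-0.44 ± 0.12 SE), *Jag1* (-0.52 ± 0.13 SE) and *Heyl* (-0.78 ± 0.17 SE). *Notch4* (0.12 ± 0.10 SE) and *Hey1* (0.0068 ± 0.16 SE) did not pass.

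In the long-term mice, where both sexes were present at 12w+dox and in 12w-res, the sex term called 0 of the 10 genes at an adjusted p under 0.05 (limma), and 0.0457% of all genes. There *Notch3* had a female minus male log2 difference of 0.39 ± 0.34 SE and *Notch1* of 0.05 ± 0.24 SE. *Dll4*, at -0.59 ± 0.17 SE, was the 1 gene of the 10 to pass an unadjusted p under 0.05 (adjusted p = 0.686, limma). Summed endothelial markers in the short-term mice were 16.1 to 28.9 FPM in the female groups and 36.3 to 63.1 FPM in the male groups. Summed markers of other pituitary hormone cells were 23.0 to 106 FPM in the female groups and 167 to 882 FPM in the male groups. Sex, time off dox and the levels of vascular and hormone cell markers cannot be told apart in the short-term mice.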
